A study of Mus musculus with 10 samples.

Results

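The genes described here encode 10 enzymes and enzyme partners that make leukotrienes, hydroxy fatty acids and prostaglandins, read out in mouse skin by RNA sequencing. They were picked by symbol (Mgst2, Ltc4s, Alox5, Alox5ap, Alox12, Alox12e, Alox8, Alox15, Ptgs2 and Ptges), with the difference between the genotypes already known, and are 10 of 55487 genes measured. The skin came from 5 wild type mice (WT) and 5 mice of the genotype written "5 Hamp1-KI ker" (KI in what follows; the design text has the 5 as the number of mice), in a series on hepcidin overexpression in skin. Hepcidin, the product of Hamp, is the hormone that lowers iron export from cells. The labels give the same tissue for both genotypes and no agent, strain, age or sex, and they do not spell out "ker" or what drives Hamp in these mice. Titles carry the prefix EAS37 (WT 1, WT 2, WT 3, KI 1 and KI 2) or EAS42 (WT 4, WT 5, KI 3, KI 4 and KI 5), whose meaning is not given.

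Eicosanoids are signalling lipids made from arachidonic acid that phospholipases A2 release from membranes. 5-lipoxygenase (Alox5), with its helper protein FLAP (Alox5ap), makes leukotriene A4, which leukotriene A4 hydrolase turns into the neutrophil attractant leukotriene B4 and which leukotriene C4 synthase (Ltc4s) or microsomal glutathione S-transferase 2 (Mgst2) joins to glutathione to give leukotriene C4. The other lipoxygenases, enzymes that carry a non-heme iron, add oxygen elsewhere on the fatty acid, and several work mainly in the epidermis, while cyclooxygenase 2 (Ptgs2) and prostaglandin E synthase (Ptges) act in turn to make prostaglandin E2.

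Promoter sequences of Mgst2, Alox12 and Alox12e are shown first. Mgst2 had the smallest standard error of the enzymes fitted. Alox12 and Alox12e are neighbours whose mean levels in KI lay on opposite sides of their WT means, with groups that overlapped for both. RefSeq (GRCm38.p6) gave the 250 bases before its start for 8 of the 10 genes. Positions of motifs count from that RefSeq start, while gene coordinates further on are the outermost ends of the GENCODE annotation. The RefSeq start of Mgst2 (51661179) lies 819 bases downstream of the GENCODE start, so its window is wholly inside the gene as GENCODE draws it. The RefSeq start of Alox12e (70322530) lies 98 bases downstream, so its window is partly inside the gene, and that of Alox12 (70255370) lies outside the GENCODE gene. Which start is used in these skins was not tested. Each line runs 5′ to 3′ on the strand of its gene, and capitals mark matches, on either strand, to 5 motifs: a TATA box (TATAAA), a GC box (GGGCGG), an AP-1 site (TGANTCA), a loose form of the antioxidant response element core (TGANNNNGC) and an NF-kappa-B type site (GGG and CC with 5 bases of any kind between them).
Mgst2, chr3:51660929-51661178, plus strand: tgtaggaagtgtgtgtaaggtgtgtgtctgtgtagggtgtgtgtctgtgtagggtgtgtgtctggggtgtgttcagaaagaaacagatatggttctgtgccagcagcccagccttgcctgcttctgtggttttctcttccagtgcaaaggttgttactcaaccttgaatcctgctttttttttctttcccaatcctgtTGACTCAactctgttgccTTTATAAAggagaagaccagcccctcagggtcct
Alox12, chr11:70255371-70255620, minus strand: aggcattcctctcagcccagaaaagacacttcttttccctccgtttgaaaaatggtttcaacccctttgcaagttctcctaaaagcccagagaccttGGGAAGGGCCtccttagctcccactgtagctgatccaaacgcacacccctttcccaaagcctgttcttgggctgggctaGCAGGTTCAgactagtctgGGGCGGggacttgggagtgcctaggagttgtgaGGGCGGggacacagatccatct
Alox12e, chr11:70322531-70322780, minus strand: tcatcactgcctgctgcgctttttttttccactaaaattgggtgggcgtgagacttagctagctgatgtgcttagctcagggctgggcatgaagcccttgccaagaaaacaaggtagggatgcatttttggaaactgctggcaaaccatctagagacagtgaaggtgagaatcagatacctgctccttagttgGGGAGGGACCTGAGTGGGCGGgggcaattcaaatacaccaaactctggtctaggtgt
The Mgst2 window held an AP-1 match 52 to 46 bases before the RefSeq start, TATA box matches on both strands that overlap each other (34 to 27 bases before the same start), and 0 CpG. The window of Alox12 held GC boxes 55 to 50 and 22 to 17 bases before its RefSeq start, and that of Alox12e held 1 GC box 42 to 37 bases before its own, within the GENCODE gene. Both held a match to the loose antioxidant core letters and an NF-kappa-B type match, and in Alox12e the core match overlaps the GC box. Over 32851 promoter windows of this length, 6.75% held the AP-1 letters, 12.4% the TATA box, 32.7% the GC box, 35.2% the antioxidant core and 45.8% the NF-kappa-B type letters. A match is a description of letters and was not tested as a binding site.

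Libraries held 18.96 to 26.43 M expected counts. Hamp, the altered gene, was at 2.46 ± 0.615 CPM (read counts scaled to a fixed library total) in WT and 109 ± 34.3 in KI (SD, n = 5), with every KI library above every WT library. Skin markers were present in all libraries, with 6 keratinocyte genes summing to 12974.5 to 14181 CPM in WT and 14291 to 26774 in KI. Libraries also held muscle RNA. The mean log2 CPM of 8 skeletal muscle genes ran from 10.99 to 11.80 in WT and from 7.43 (KI 2) to 11.11 (KI 3) in KI, and 0 of the 8 genes passed the genotype test by edgeR (6 lower at an unadjusted p under 0.05, 5 lower by DESeq2 and 2 by limma-voom). In that mean, called the muscle level below, every KI library but KI 3 was under every WT library. As a covariate it is therefore tied to the genotype. What it takes from a genotype difference cannot be assigned to muscle or to genotype. In these bulk samples, fewer cells of a type and less RNA per cell cannot be told apart. There was 1 library per mouse.

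Of the 10 genes, 9 had enough counts to be fitted among 17321 genes, and Alox15 did not. Because the genes were chosen on the contrast of KI against WT, their fold changes in it are descriptions with a standard error and no test. In the fit over all genes 5 of these 9 were past an adjusted p of 0.05 (3 higher and 2 lower in KI), in a contrast where 30.9% of all tested genes were past it, 15.6% higher and 15.3% lower, and nothing is read from that count. The median log2 fold change was 0.68 over the 9 genes and -0.009 over all tested genes. Every KI library lay above every WT library for 2 of the 9 (10.7% of all tested genes) and below for 1 of the 9 (9.65%). The groups thus did not overlap for 3 of the 9, beside 20.3% of all tested genes.

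Mgst2, the membrane enzyme that makes leukotriene C4 outside blood cells, was higher in KI, with the smallest standard error of the 9 genes. Its level was 11.4, 11.6, 10.8, 13.3 and 12.4 CPM in WT 1 to 5 and 34.9, 32.6, 30.9, 34.7 and 31.2 CPM in KI 1 to 5. The lowest KI library was above the highest WT library, and neither group spread widely. The means were 11.9 ± 0.972 and 32.9 ± 1.88 CPM (SD, n = 5), a 2.76-fold difference and a log2 fold change of 1.46 ± 0.08 (SE). It was 1.60 ± 0.12 within EAS37 and 1.31 ± 0.12 within EAS42. Mgst2 lies on chromosome 3 (51660360 to 51682677, GRCm38, plus strand). An overlapping transcript of the same strand, Gm37261, held 88 counts in WT and 255 in KI beside the 1379 and 3520 counts of Mgst2.

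Ltc4s, the leukotriene C4 synthase of mast cells and other myeloid cells, was low and its groups overlapped. Its level was 3.18, 1.91, 3.23, 3.41 and 3.67 CPM in WT 1 to 5 and 3.38, 3.66, 5.28, 4.02 and 5.52 CPM in KI 1 to 5. WT 2 was the lowest library, and KI 3 and KI 5 were the highest. The log2 fold change was 0.50 ± 0.22 (SE), and 0.81 with the muscle level as a covariate. As a share of the TPM (a level scaled to transcript length and library) of both leukotriene C4 makers, Mgst2 was 67.1% ± 4.65 in WT, between 61.1% and 73.0%, and 82.5% ± 5.41 in KI, between 75.3% and 87.8% (SD, n = 5). Part of that difference comes from length. The deposited effective length averaged 935.0 bases in WT and 760.9 in KI for Mgst2, and 477.2 and 483.6 for Ltc4s.

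Alox5ap, the membrane protein that hands arachidonic acid to 5-lipoxygenase, was at 12.0, 10.3, 10.2, 9.33 and 12.2 CPM in WT 1 to 5 and at 16.4, 22.2, 12.7, 18.96 and 16.6 CPM in KI 1 to 5. All KI libraries were above all WT libraries, with KI 3 only just above WT 5. The log2 fold change was 0.68 ± 0.15 (SE), and 0.33 ± 0.16 with the muscle level as a covariate. Alox5 itself, the enzyme that opens leukotriene synthesis, was at 6.66, 5.03, 5.37, 9.33 and 8.62 CPM in WT 1 to 5 and at 5.55, 9.23, 8.63, 10.6 and 9.07 CPM in KI 1 to 5. Its groups overlapped, with KI 1 below WT 1 and the EAS42 WT libraries level with most KI libraries. The log2 fold change of Alox5 was 0.30 ± 0.22 (SE). Within EAS42 alone it was 0.06, and without WT 2 it was 0.20.

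Cell types known to carry 5-lipoxygenase were read through their markers. The 9 mast cell genes summed to 66.7 to 120.3 CPM in WT and 64.1 to 164 in KI, and 1 of the 8 tested fell by edgeR. The 8 macrophage genes summed to 175 to 356 CPM in WT and 269.9 to 426 in KI, and 0 passed by edgeR (1 higher at an unadjusted p under 0.05, 1 by DESeq2 and 0 by limma-voom). Neutrophil genes were near the floor, with 2 of 9 tested and both higher. The sum of the 9 was 0.318 to 1.52 CPM in WT and 2.94 to 13.1 in KI, and Ly6g, a defining marker, was at 0 in all libraries. Langerhans and dendritic cell genes summed to 181 to 265 CPM in WT and 355 to 487 in KI, and 4 of 7 rose. Epcam alone averaged 132 CPM in WT and 277 in KI, and Cd207 8.42 and 15.5. Flt3, Xcr1 and Clec9a did not pass, and Clec9a was lower (log2 -0.49 ± 0.37). The part of these cells in the levels of Alox5ap, Alox5 and Ltc4s was not tested.

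**Figure D1:**
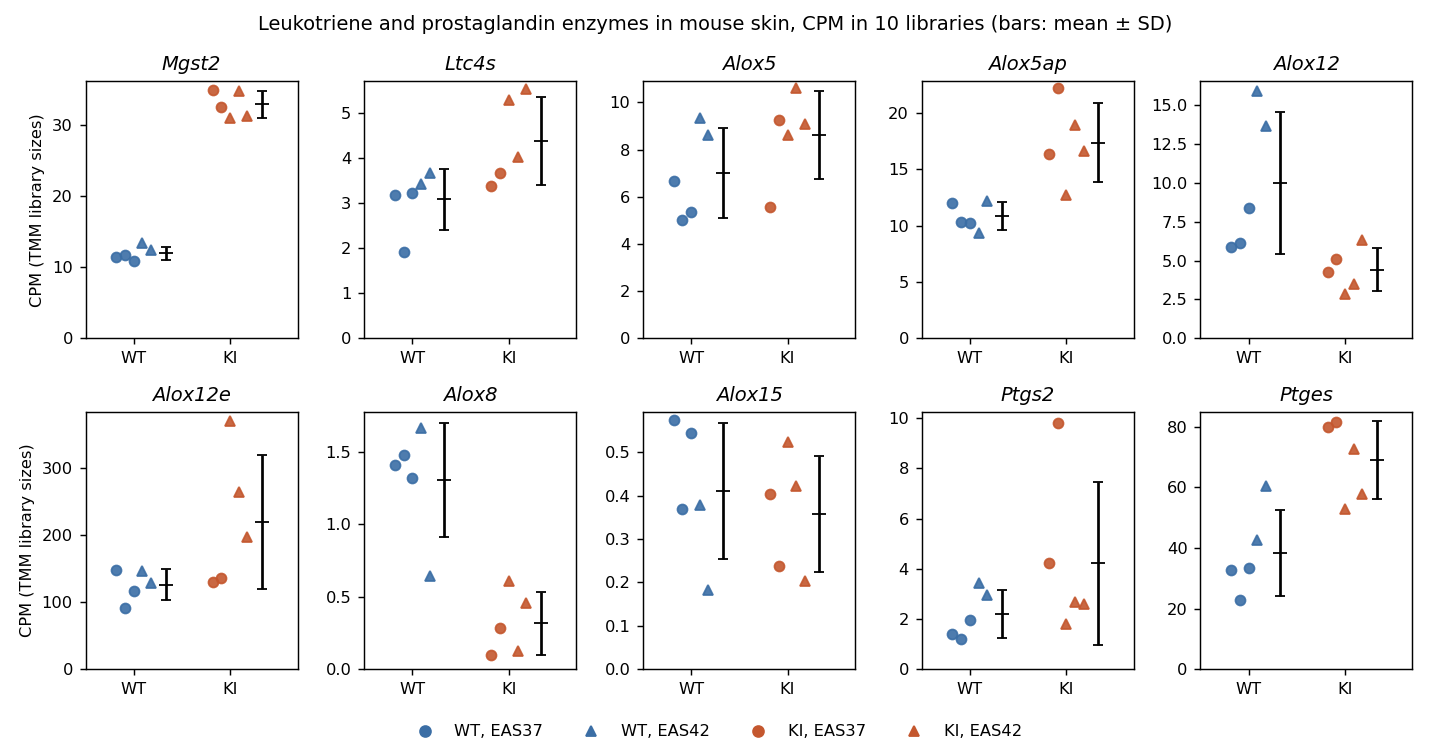
CPM of the 10 enzymes (y axis, linear, from 0) in each WT and KI library (points; circles EAS37, triangles EAS42) with the mean ± SD of 5 libraries beside them. Mgst2 and Alox5ap are higher in all KI libraries than in any WT library and Alox8 is lower, while the groups of the other 7 genes overlap.

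Among the lipoxygenases the mean levels of the genotypes differed in opposite directions. Alox12e, the epidermis-type 12-lipoxygenase, was at 148, 91.5, 117, 146 and 128 CPM in WT 1 to 5 and at 129.9, 137, 370.0, 264 and 197 CPM in KI 1 to 5. The 3 EAS42 KI libraries were above every WT library, and the EAS37 KI libraries were within the WT range. The means were 126 ± 23.3 and 219.6 ± 100.01 CPM (SD, n = 5), with a log2 fold change of 0.80 ± 0.28 (SE). Leaving out KI 3 brought it to 0.53, and the muscle level as a covariate to 1.32 ± 0.29.

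Alox12, the platelet-type 12-lipoxygenase, which skin also expresses, was at 5.87, 6.14, 8.40, 15.9 and 13.6 CPM in WT 1 to 5 and at 4.29, 5.09, 2.83, 3.51 and 6.33 CPM in KI 1 to 5. The EAS42 WT libraries were the highest, and KI 5 lay above WT 1 and WT 2, so the groups overlapped. The mean in KI was 55.8% lower than in WT, and the log2 fold change was -1.18 ± 0.32 (SE). It was -0.52 ± 0.25 within EAS37 and -1.82 ± 0.32 within EAS42. Of 3 tested platelet genes 0 passed by edgeR, DESeq2 or limma-voom (2 higher at an unadjusted p under 0.05 in edgeR), and the sum of all 5 listed platelet genes was 21.9 to 30.8 CPM in WT and 28.8 to 47.5 in KI. The sum was carried by Pf4 (means of 10.2 CPM in WT and 12.4 in KI), Itga2b (7.10 and 9.05) and Gp1bb (9.85 and 16.8). Gp1bb overlaps Sept5 on the same strand, and Ppbp and Gp9 were below the filter.

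Alox8, the lipoxygenase that oxygenates carbon 8 of arachidonic acid, was rare. Its level was 1.41, 1.48, 1.32, 1.67 and 0.642 CPM in WT 1 to 5 and 0.101, 0.286, 0.610, 0.127 and 0.456 CPM in KI 1 to 5. All KI libraries were below all WT libraries, but KI 3 was close to WT 5. The counts behind these levels were 152 over the WT libraries and 34 over the KI libraries, and the log2 fold change was -2.03 ± 0.46 (SE). Alox15, the leukocyte-type 12/15-lipoxygenase, held 4 to 14 counts in a WT library and 4 to 12 in a KI library, 48 and 39 in all. Its level was 0.410 ± 0.157 CPM in WT and 0.358 ± 0.134 in KI (SD, n = 5). Alox15 was below the filter, so its difference was not fitted over all libraries.

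Alox12, Alox12e and Alox15 lie side by side on the minus strand of chromosome 11 within 110.6 kb (GRCm38), with 60.3 kb between Alox12 (70241457 to 70255353) and Alox12e (70315610 to 70322628) and 21.5 kb between Alox12e and Alox15 (70344152 to 70352031). The ratio of Alox12e to Alox12 in TPM was 32.97, 18.8, 17.2, 11.5 and 12.7 in WT 1 to 5 and 36.0, 31.9, 161, 92.9 and 39.2 in KI 1 to 5. WT 1 was level with the lower KI libraries, and KI 3 was the highest of all. Alox8 lies 1043.6 kb away, next to Alox12b and Aloxe3, the barrier lipoxygenases that act on ceramide-bound fatty acids. Neither of these neighbours passed the genotype test in edgeR, with log2 fold changes of -0.10 ± 0.32 (adjusted p = 0.842) for Alox12b and 0.29 ± 0.24 (adjusted p = 0.379) for Aloxe3. In EAS37 alone Alox12b was at 0.63 ± 0.33 (edgeR adjusted p = 0.209) and Aloxe3 at 0.64 ± 0.17 (0.0321). In EAS42 alone Alox12b was at -0.77 ± 0.1 (edgeR adjusted p = 0.00494) and Aloxe3 at -0.14 ± 0.1 (0.391). The difference between the prefixes passed for neither (edgeR adjusted p = 0.1 and 0.101). Of the summed TPM of the 7 lipoxygenases in skin, Alox12e made up 53.3% ± 6.82 in WT and 62.1% ± 9.73 in KI, and Alox12 3.17% ± 0.845 and 1.18% ± 0.533 (SD, n = 5).

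Ptgs2, the inducible cyclooxygenase, was at 1.41, 1.22, 1.95, 3.45 and 2.93 CPM in WT 1 to 5 and at 4.24, 9.80, 1.79, 2.67 and 2.58 CPM in KI 1 to 5. KI 1 and KI 2 were above every WT library, whereas the EAS42 KI libraries were below both EAS42 WT libraries. The log2 fold change of 0.93 ± 0.48 (SE) rested on KI 2 and was 0.36 without it. With the muscle level as a covariate the direction turned, to -0.39 ± 0.51, and KI 2 was also the library with the lowest muscle level.

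Ptges, the membrane prostaglandin E synthase that takes the product of cyclooxygenase 2, was at 32.8, 22.8, 33.4, 42.7 and 60.3 CPM in WT 1 to 5 and at 79.7, 81.6, 52.8, 72.8 and 57.9 CPM in KI 1 to 5. Both EAS37 KI libraries were above all WT libraries, and WT 5 lay above KI 3 and KI 5. The means were 38.4 ± 14.1 and 69.0 ± 13.0 CPM (SD, n = 5), with a log2 fold change of 0.84 ± 0.24 (SE). It was 1.47 ± 0.17 within EAS37 and 0.24 ± 0.18 within EAS42. The ratio of Ptges to Ptgs2 in TPM was 25.2 ± 7.79 in WT and 26.3 ± 10.2 in KI (SD, n = 5), with ranges that overlapped.

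Of 5 genes of activated keratinocytes, such as the stress keratin gene Krt6a, 4 rose in KI by edgeR. Their sum was 1026 to 4536 CPM in WT and 4796 to 17184 in KI. Of 6 general keratinocyte genes 2 rose. Sebaceous gland genes summed to 835 to 1422 CPM in WT and 1185 to 3034 in KI, with 4 of 7 higher. Adipocyte genes (1638 to 2161 against 517 to 908 CPM, 5 of 6 lower), endothelial genes (147 to 209 against 93.2 to 124 CPM, 5 of 5 lower) and fibroblast genes (4794 to 10042 against 2294 to 4781 CPM, 2 of 5 lower) fell where they passed. Car3 had the largest mean of the adipocyte genes (1179 CPM in WT and 388 in KI). The fibroblast sum was carried by Col1a1 (means of 3612 CPM in WT and 1396.5 in KI) and Col1a2 (3797 and 1491). The fibroblast genes Pdgfra (log2 -0.0 ± 0.15), Dcn (-0.53 ± 0.23) and Lum (-0.13 ± 0.34) did not pass. T cell genes summed to 19.5 to 37.5 CPM in WT and 51.1 to 70.1 in KI, with 3 of 5 higher. The 4 eosinophil genes were below the filter (0.114 to 0.817 CPM in sum in WT, 0.131 to 0.807 in KI), and Epx, a defining one, was at 0. The part of these markers' changes in the enzymes' levels was not tested.

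Compared per length, Alox12e was the most abundant of the 10 in both genotypes, at 85.2 ± 16.8 TPM in WT and 142 ± 70.7 in KI (SD, n = 5). In WT it was followed by Alox5ap at 28.2 ± 3.91 TPM and Mgst2 at 17.97 ± 3.05 TPM, with ranges that did not overlap from one to the next. Mgst2 overlapped with Ptges at 16.2 ± 4.76 TPM. Below a further gap came Ltc4s at 8.87 ± 1.99, Alox5 at 6.03 ± 1.82 and Alox12 at 5.23 ± 2.30 TPM, each overlapping with the next. Ptgs2, Alox8 and Alox15 were lowest, at 0.698 ± 0.299, 0.584 ± 0.176 and 0.254 ± 0.104 TPM, and their ranges also overlapped from one to the next. In KI Mgst2 moved to the second place at 56.6 ± 6.32 TPM, with a range that overlapped with that of Alox5ap at 39.6 ± 8.03 TPM, and Alox8 became the lowest at 0.146 ± 0.0899 TPM. The TPM of Mgst2 differed more than its CPM, as its deposited effective length averaged 935.0 bases in WT and 760.9 in KI.

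**Figure D2:**
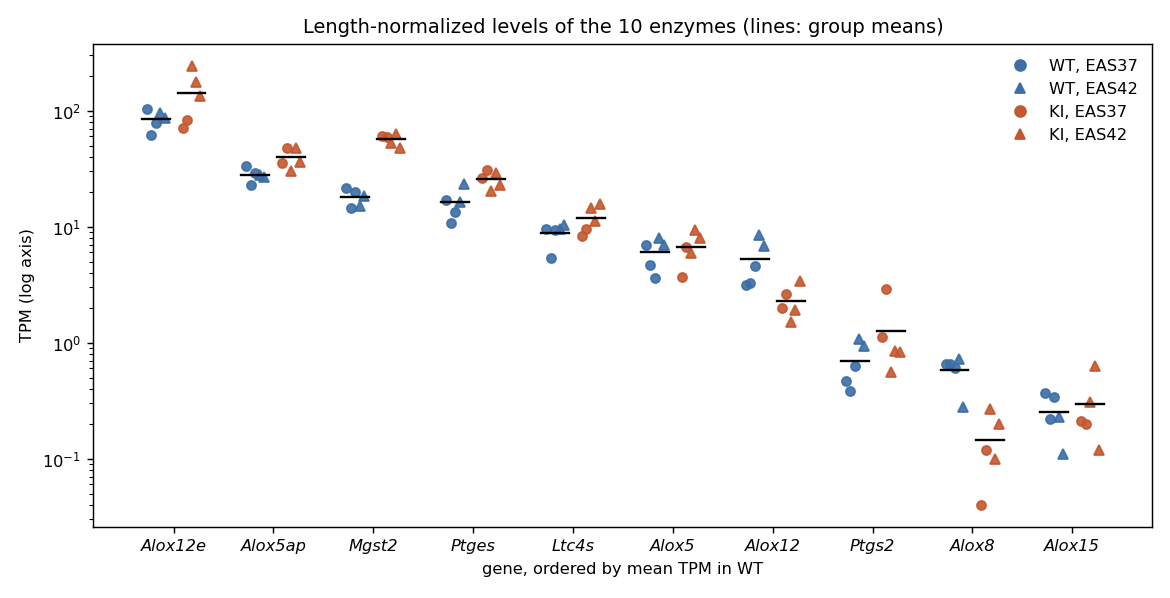
TPM of the 10 enzymes on a log axis, ordered by their mean in WT, for each WT and KI library (circles EAS37, triangles EAS42; lines are group means). Alox12e is highest in both genotypes, and Mgst2 passes from the third to the second place in KI.

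The title prefix was not used to choose the genes, so its effect could be tested. With the genotype adjusted for, 0 of the 9 genes differed between EAS37 and EAS42 by edgeR after adjustment over all genes, where 2.47% of all tested genes did. At an unadjusted p under 0.05 there were 3 of 9, against 19.4% of all tested genes. All 3 were lower in EAS37, with edgeR log2 differences (EAS37 minus EAS42) of -0.63 ± 0.23 for Alox12e (adjusted p = 0.179), -0.50 ± 0.16 for Alox5 (adjusted p = 0.132) and -0.42 ± 0.19 for Ltc4s (adjusted p = 0.258). DESeq2 put 2 of these past the threshold, Alox5 (adjusted p = 0.0468) and Alox12e (adjusted p = 0.0493), and limma-voom 0.

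The difference between the genotypes was also compared between the prefixes. By edgeR 0 of the 9 genes passed the test of that difference, against 0.866% of all tested genes, and 3 of 9 had an unadjusted p under 0.05, against 17.7%. For Ptgs2 the KI effect was 2.21 ± 0.41 on the log2 scale within EAS37 and -0.46 ± 0.30 within EAS42, a difference of 2.64 ± 0.52 (edgeR adjusted p = 0.0523). KI and WT libraries of Ptgs2 stood apart in both prefixes and in opposite directions, which was so for 2.5% of all tested genes. For Ptges the difference was 1.19 ± 0.29 (edgeR adjusted p = 0.0823) and for Alox12 1.27 ± 0.44 (adjusted p = 0.176). DESeq2 called Ptgs2 (adjusted p = 0.000476) and Ptges (adjusted p = 0.00436), and limma-voom 0 of the 9. Mgst2 differed between prefixes by 0.25 (edgeR adjusted p = 0.42). Whether the prefix stands for a litter, a day or another batch is not given.

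**Figure D3:**
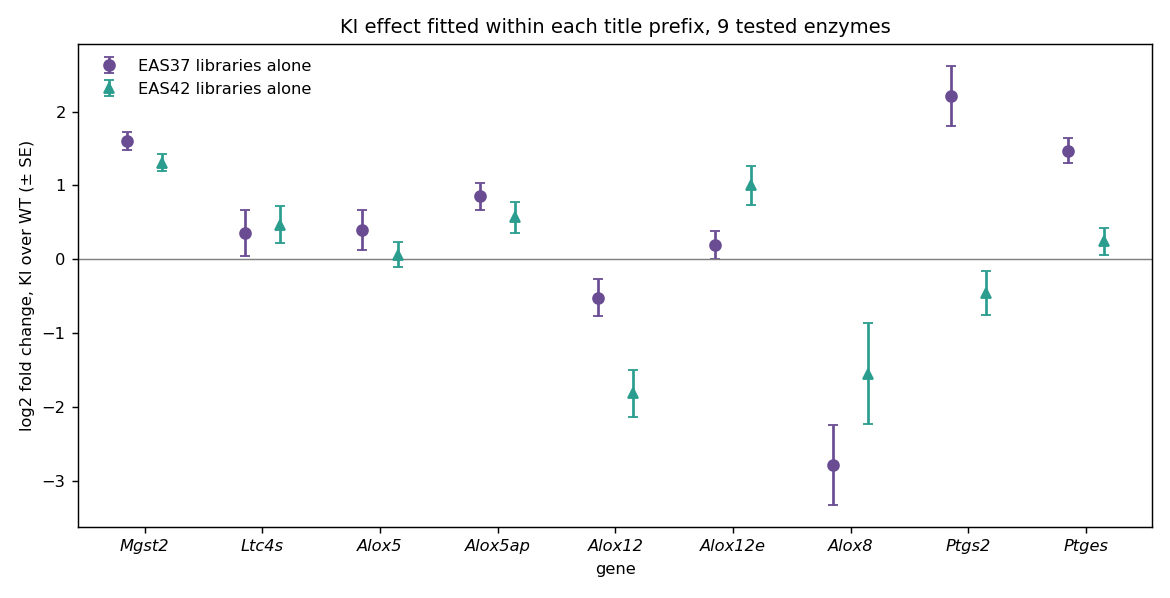
Log2 fold change of KI over WT ± SE (y axis) for the 9 tested enzymes, fitted in EAS37 libraries alone (circles, 3 WT and 2 KI) and EAS42 libraries alone (triangles, 2 WT and 3 KI). Mgst2 lies at 1.60 and 1.31, and Ptgs2 lies above 0 in EAS37 and below it in EAS42.

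Genes that varied most like each enzyme within genotypes were taken from the log2 CPM of 10 libraries after subtraction of each genotype's mean, over 15673 genes. With so many genes and 10 libraries that share depth and composition, these are descriptions with no test. For Mgst2 the highest Pearson r were those of Cenpo (0.937), Sapcd2 (0.916) and Cdc6 (0.906). For Alox12e they were Atf7 (0.952), Rnf216 (0.949) and D630003M21Rik (0.945), and for Alox12 Tcrg-C2 (0.969), Dlg2 (0.956) and Pex7 (0.937). For Ptgs2 they were Chmp5 (0.973), Cstf2t (0.948) and Sat1 (0.943), and for Ptges Rbm3-ps (0.967), Nsl1 (0.962) and Gm6472 (0.959). For Alox5ap they were Zfp120 (0.925), Exoc6b (0.914) and Rpsa-ps4 (0.882), for Alox5 Inpp4b (0.96), Trim47 (0.955) and Lepr (0.941), and for Ltc4s Six5 (0.973), Sema3c (0.965) and 2700054A10Rik (0.961).

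The rest of the pathway, 56 genes in 8 lists by role, was tested for KI against WT. Of these, 50 had enough counts, 14 rose, 10 fell and 26 did not pass by edgeR at an adjusted p of 0.05, and 6 were below the filter. Over all tested genes 15.6% rose and 15.3% fell. The lists were chosen with earlier results of these data known, so nothing is read from their counts against these shares. The median log2 fold change of the 50 genes was 0.14. With the muscle level, itself tied to the genotype, as a covariate 5 of the 14 kept their call (Abcc1, Slco2a1, Ptgdr, Pla2g7 and Pla2g4e). None of the 10 did, and over all genes 447 were called in place of 5351.

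In leukotriene synthesis and removal, 4 of 9 tested genes rose and 1 fell. Lta4h, the hydrolase that makes leukotriene B4, rose from 45.9 ± 4.34 to 58.6 ± 6.70 CPM (log2 0.35 ± 0.09, edgeR adjusted p = 0.018, 0.445 with the muscle level). Mgst3, a related glutathione transferase, was at 0.07 ± 0.09 on the log2 scale (adjusted p = 0.58). Abcc1, the pump that exports leukotriene C4, rose from 128 ± 4.501 to 179 ± 13.9 CPM (log2 0.48 ± 0.07, edgeR adjusted p = 0.00107, 0.0384 with the muscle level). Dpep2, a dipeptidase that turns leukotriene D4 into E4, rose from 5.70 ± 0.700 to 10.4 ± 2.02 CPM (edgeR adjusted p = 0.00396, 0.0725 with the muscle level and 0.0857 in EAS37 alone), and Ptgr1, which inactivates leukotriene B4, from 63.5 ± 14.3 to 106 ± 29.8 CPM (edgeR adjusted p = 0.0252). The call of Ptgr1 was lost without KI 1, KI 2, WT 1 or WT 3 (adjusted p from 0.0553 to 0.0671), in EAS42 alone (0.618), with no filter (0.0547) and with the muscle level (0.543).

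Dpep1, the other dipeptidase, fell from 33.9 ± 7.78 to 20.6 ± 5.41 CPM (log2 -0.72 ± 0.22, edgeR adjusted p = 0.0296). Its value is uncertain, since Gm20388 overlaps it on the same strand with 7136.4 counts in WT and 7742.6 in KI beside 3858 and 2223 for Dpep1. The call was lost without KI 1, KI 2, WT 1, WT 2, WT 3 or WT 5 (adjusted p from 0.056 to 0.0693), in EAS42 alone (0.606) and with the muscle level (0.489).

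Of the leukotriene receptors, 1 of 4 tested rose. Ltb4r1, the high-affinity leukotriene B4 receptor, was at 7.81, 5.66, 9.69, 10.8 and 9.17 CPM in WT 1 to 5 and at 23.8, 20.9, 15.4, 15.9 and 14.04 CPM in KI 1 to 5. Every KI library was above every WT library, with the EAS37 KI libraries the highest. The log2 fold change was 1.06 ± 0.20 (edgeR adjusted p = 0.00382, 0.145 with the muscle level). The low-affinity receptor Ltb4r2 was at 0.44 ± 0.16 (adjusted p = 0.0537) and the cysteinyl leukotriene receptor Cysltr1 at -0.49 ± 0.26 (adjusted p = 0.17). Ltb4r2 was at 0.69 ± 0.17 in EAS37 alone (edgeR adjusted p = 0.0272) and at 0.15 ± 0.18 in EAS42 alone (0.616). Oxgr1, also assigned to leukotriene E4, was at 0 in all libraries. Neither of the 2 other lipoxygenases, Alox12b and Aloxe3, passed with all libraries fitted together.

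Among the 9 other prostanoid synthesis genes 1 rose and 4 fell. Ptgis, prostacyclin synthase, fell from 4.82 ± 1.55 to 1.74 ± 0.755 CPM, with every KI library below every WT library (log2 -1.47 ± 0.35, edgeR adjusted p = 0.0113, 0.388 with the muscle level). Ptgds, the lipocalin-type prostaglandin D synthase, fell from 9.93 ± 4.95 to 3.10 ± 2.26 CPM (edgeR adjusted p = 0.0322), and that call was lost in 8 of 10 fits that left out 1 library, each but WT 2 and KI 5 (adjusted p from 0.0517 to 0.0781), with no filter (0.0798), within each prefix (0.0713 and 0.064) and with the muscle level (0.544). Fam213b, also named Prxl2b and known as a prostamide and prostaglandin F synthase, fell from 50.3 ± 14.6 to 31.4 ± 5.24 CPM (edgeR adjusted p = 0.0227), a call lost without KI 1, KI 2, KI 4 or WT 4 (adjusted p from 0.0514 to 0.059) and with the muscle level. Ptges3, the cytosolic prostaglandin E synthase and Hsp90 partner p23, rose from 125 ± 11.3 to 158 ± 18.7 CPM (edgeR adjusted p = 0.0224), a call lost without KI 1, KI 2 or WT 5 (adjusted p from 0.0509 to 0.052), in EAS42 alone (0.127) and with the muscle level (0.615). Ptgs1, the constitutive cyclooxygenase, was at 0.36 ± 0.26 on the log2 scale (adjusted p = 0.308), and Hpgds, the prostaglandin D synthase of immune cells, at 0.33 (adjusted p = 0.463). Ptgs1 was at 1.0 ± 0.23 in EAS37 alone (edgeR adjusted p = 0.0275) and at -0.26 ± 0.09 in EAS42 alone (0.0981).

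Of 5 genes for prostaglandin transport and breakdown 1 rose and 2 fell. Slco2a1, the carrier that takes prostaglandins up, was at 68.5 ± 10.2 CPM in WT and 131 ± 13.5 in KI, with all KI libraries above all WT libraries (log2 0.94 ± 0.11, edgeR adjusted p = 0.000429, 0.00859 with the muscle level). Hpgd, which inactivates prostaglandin E2, fell from 30.1 ± 2.74 to 19.8 ± 5.26 CPM (log2 -0.61 ± 0.16, edgeR adjusted p = 0.0185), with a call lost in EAS42 alone (0.207) and with the muscle level (0.271). Ptgr2, which reduces the product of Hpgd, fell from 42.4 ± 2.73 to 29.7 ± 3.86 CPM (log2 -0.51 ± 0.09, edgeR adjusted p = 0.0037), with every KI library below every WT library and a call lost in EAS42 alone (0.0799) and with the muscle level.

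Of 8 tested prostanoid receptors 1 rose and 2 fell. Ptgdr, a receptor for prostaglandin D2, rose from 3.18 ± 1.04 to 8.41 ± 1.86 CPM with no overlap between the groups (log2 1.40 ± 0.24, edgeR adjusted p = 0.00252, 0.0281 with the muscle level). Ptger3, the EP3 receptor for prostaglandin E2, fell from 15.002 ± 4.67 to 6.12 ± 2.63 CPM (log2 -1.29 ± 0.32, edgeR adjusted p = 0.0127, 0.289 with the muscle level). Ptgfr, the receptor for prostaglandin F2 alpha, fell from 16.7 ± 5.14 to 8.48 ± 3.002 CPM (edgeR adjusted p = 0.0304), a call lost without WT 1, WT 4, WT 5, KI 2 or KI 4 (adjusted p from 0.0532 to 0.07), in EAS37 alone (0.0644), with no filter (0.0542) and with the muscle level.

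Of 13 tested phospholipases A2, which release or clear the fatty acids that feed these enzymes, 6 rose and 1 fell. Pla2g7, the lipoprotein-associated phospholipase that breaks down platelet activating factor, rose from 9.69 ± 1.78 to 53.7 ± 20.4 CPM (log2 2.47 ± 0.26, edgeR adjusted p = 0.000372, 0.00542 with the muscle level). Pla2g4e, a cytosolic enzyme that acts as an N-acyltransferase, rose from 16.1 ± 6.64 to 74.6 ± 19.6 CPM (log2 2.21 ± 0.27, edgeR adjusted p = 0.000628, 0.0276 with the muscle level). The secreted enzymes Pla2g2d, a phospholipase of dendritic cells, and Pla2g2f, an epidermal one, rose from 1.53 ± 0.965 to 9.12 ± 3.30 CPM (log2 2.58 ± 0.46, edgeR adjusted p = 0.00365, 0.106 with the muscle level) and from 239 ± 74.98 to 625.4 ± 215 CPM (log2 1.39 ± 0.29, edgeR adjusted p = 0.00694). The call of Pla2g2f was lost in EAS42 alone (log2 0.73, adjusted p = 0.275) and with the muscle level. The difference between the prefixes was past the threshold for 1 of the 50 pathway genes, Pla2g4f, which was picked out after its values were seen (log2 1.24 ± 0.23, edgeR adjusted p = 0.0458).

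**Figure D4:**
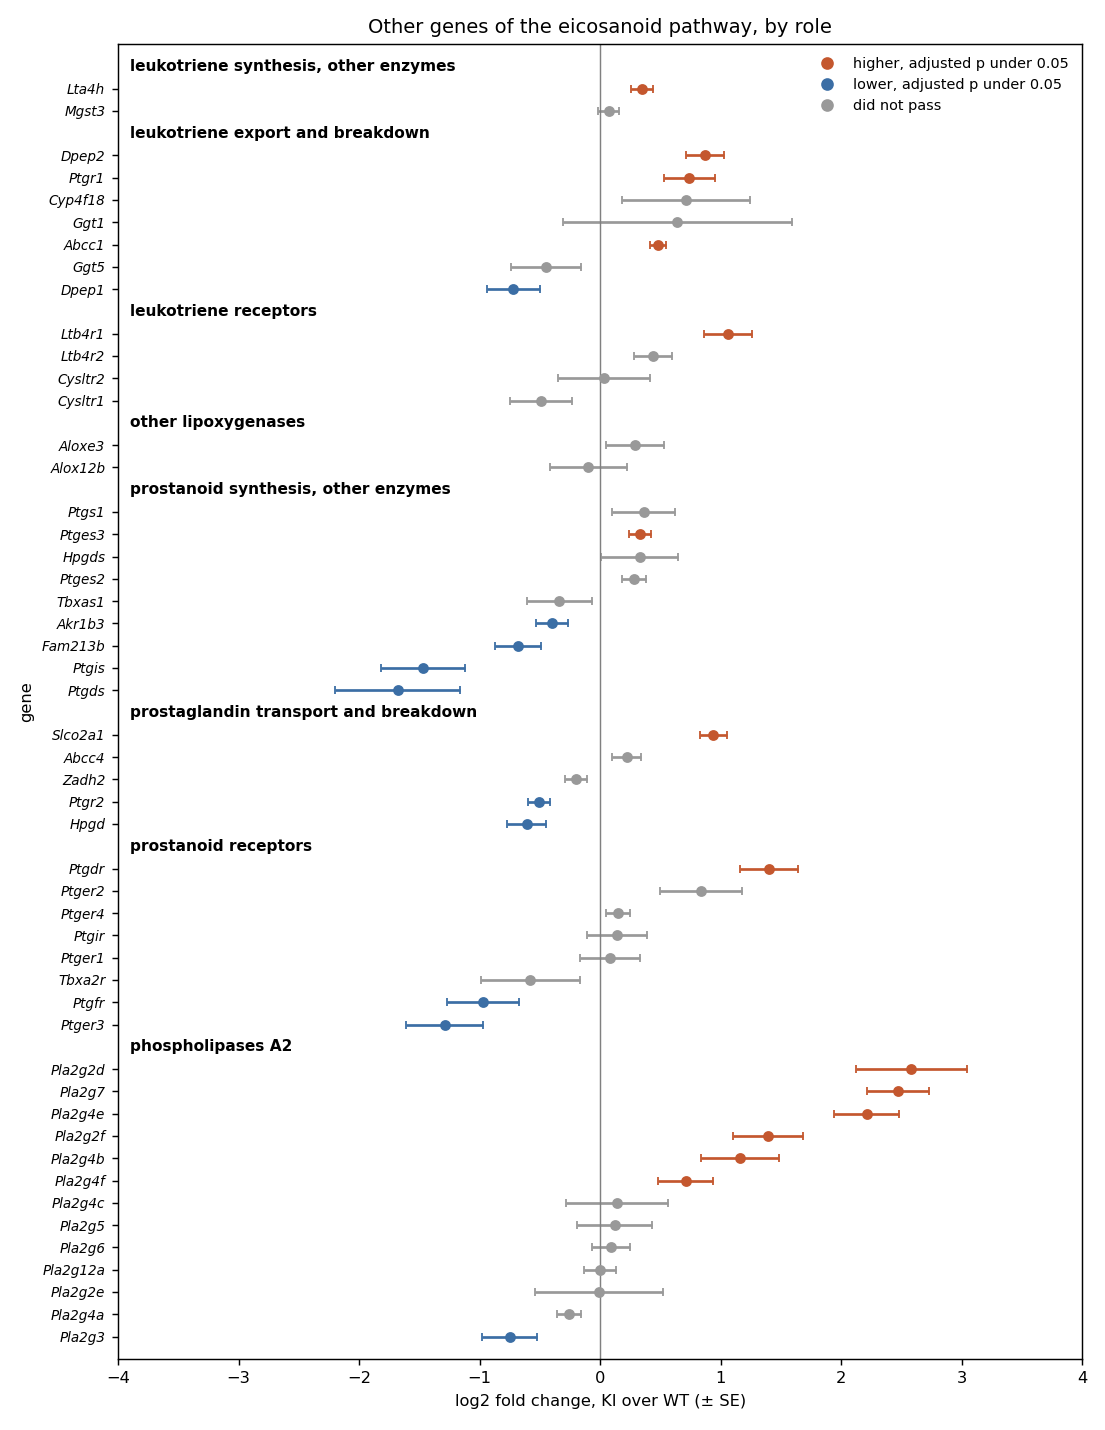
Log2 fold change of KI over WT ± SE (x axis) for the 50 tested pathway genes outside the 10 enzymes, grouped by role and colored by the edgeR call. Phospholipases A2 hold the largest rises of the 50, with Pla2g2d at 2.58, and Ptgds and Ptgis the largest falls, at -1.68 and -1.47.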

How the data were processed

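RNA from the skin of 10 mice was made into stranded mRNA libraries, per the labels' protocols, with 1 library per mouse. GRCm38 is the build named in the submitters' processing notes, which list DESeq2 1.14.1, Picard 2.8.1, STAR 2.5.2b, FastQC and featureCounts without saying what each did. Per the file headers, the authors' tables are RSEM gene tables with expected counts, TPM, FPKM and lengths. Which RSEM version, annotation release and strand setting were used is not given in the sources used here. Expected counts deposited by the authors need not be whole (10.4% to 12.2% were fractional) and were rounded for testing. The authors' TPM served to compare levels between genes, and the authors' FPKM values were not used.

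Symbols and coordinates came from GENCODE M21 on GRCm38, which named 55227 of 55487 identifiers. The 260 others held 0.0113% of counts. Genes were kept by edgeR's filterByExpr (minimum count 10, minimum total 15). Tests used the robust quasi-likelihood fit of edgeR 4.0.16 in R 4.3.3 with TMM, Benjamini-Hochberg adjustment over 17321 genes and a threshold of 0.05. They were also run on simulated counts, drawn independently for each gene with no shared difference such as muscle content. That run therefore does not show how the tests behave in these libraries. CPM values use TMM library sizes, and the SE of a log2 fold change was derived from the F statistic. Models had the genotype alone, the genotype with the title prefix, or both with their interaction. Each p-value sets a difference against the spread between these libraries, which was estimated with information shared over all tested genes.

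The members and all lists (8 of pathway roles, 14 of cell type markers) were chosen with earlier results of these data known. Named genes are all members, Hamp, and up to 4 genes past the threshold with the smallest p in each pathway list. Other genes are named outside this rule, some of them with their edgeR adjusted p. Muscle level is the mean log2 CPM of 8 skeletal muscle genes. Replicate numbers follow accession order and pair nothing. Alternatives were DESeq2 size factors, upper quartile scaling, no filter, minimum count 50, DESeq2 1.42.0, limma-voom (limma 3.58.1), the muscle level as a covariate, the prefix as a block, each prefix alone and each library left out.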

Additional observations from a re-analysis of the deposited data

Results flagged for a closer look

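In groups of 5 libraries, a library was singled out where its gap to the nearest of the others, divided by the whole range of its group, was above 0.71. Of 60 groups looked at (30 genes in each genotype), chance would single out about 1 in 20. Ltc4s was at 1.91 CPM in WT 2 against 3.18 to 3.67 CPM in the other WT libraries. Dpep1 was at 20.3 CPM in WT 4 against 34.9 to 39.4 in the others. Ptgds was at 7.09 CPM in KI 5 against 1.48 to 2.41 in the other KI libraries. Pla2g4e was at 27.9 CPM in WT 2 against 11.6 to 14.2 in the other WT libraries.

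Ptgs2 differed in its genotype effect between the title prefixes by 2.64 on the log2 scale. It was picked out because every KI library was above every WT library in EAS37 and below every WT library in EAS42. By edgeR that difference had an adjusted p of 0.0523, and 0.148 without KI 2.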

How the results depend on the processing

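No paired analysis was possible because the replicate numbers only follow the order of the accessions. For the 9 enzymes fitted, 166 of 179 alternative values of the genotype difference moved by less than 1 spread between replicates. That margin is wide, as the move of Ptgs2 from 0.93 to 0.36 without KI 2 lay within it. Fits that left out 1 library also shared all their libraries with the main fit, so their values were bound to lie close. The direction of all 9 enzymes fitted was the same with DESeq2 size factors and upper quartile scaling. For Ptgs2 the direction turned with the muscle level (-0.39) and in EAS42 alone (-0.46). The count of enzymes past the threshold was 5, 2 with the muscle level, 2 in EAS42 alone and 4 to 5 without 1 library. Over all genes the counts in the same order were 5351 of 17321, 447 of 17321, 2488 of 17845 and 3821 to 5850. Nothing is read from the enzyme counts. Pathway genes called higher were 14, 5 with the muscle level and 11 to 15 without 1 library. Those called lower were 10, 1 with the muscle level (Pla2g4a, not among the 10) and 5 to 10 without 1 library (5 without KI 1, KI 4, WT 4 or WT 5 and 6 without KI 2). Of the 20 named pathway genes 14 kept their call whichever library was left out. Enzymes past the threshold for the prefix were 0 by edgeR, 2 by DESeq2 and 0 without any 1 library, and for the difference between prefixes 0, 2 by DESeq2, 1 with no filter and 0 without any 1 library. The prefix difference turned direction for Alox8 (0.07 by limma-voom, 0.32 with the muscle level, -0.59 to 0.05 without 1 library), Alox5ap (-0.15 with the muscle level), Ptgs2 (-0.89 with the muscle level, -0.26 to 0.59 without 1 library) and Ptges (-0.32 to 0.03 without 1 library). The difference of the KI effect between prefixes turned for Alox5 (-0.18 with the muscle level, -0.11 to 0.65 without 1 library), Alox5ap (-0.14 with the muscle level) and Ltc4s (-0.34 to 0.0 without 1 library). The cause was not tested. Depth limits Alox8 and Alox15, and Alox8 had no value at a minimum count of 50.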
